A study of Homo sapiens with 27 samples.

Results

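The genes of the integrated stress response and of the unfolded protein response were followed in cultured human endothelial cells 2 days after CRISPR-Cas9 electroporation. The 40 genes were taken by name from the deposited table of read counts, all 40 were present among its 14008 genes, and all 40 passed the filter on low counts in every comparison. They comprised 4 genes of sensing (3 stress sensors and XBP1), 5 transcription factors, 4 effectors and feedback genes, 8 genes of amino acid synthesis, transport and tRNA charging, 13 chaperones and folding enzymes of the endoplasmic reticulum (ER), and 6 genes of ER-associated degradation and the translocon.

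The cells were teloHAEC, a human aortic endothelial line immortalised with telomerase, and the measurement was 3' mRNA sequencing, in which about 1 read is made per transcript near its poly(A) tail. In every replicate 150000 cells received a Cas9 ribonucleoprotein by electroporation, and the cells were used as an edited pool, not as clones. Experiment set A held 4 libraries with a non-targeting crRNA (the negative control), 4 with a crRNA against HPRT (the positive control for cutting) and 4 with guides flanking an enhancer of SMAD3. Set B held 7 negative controls, 4 HPRT libraries and 4 with guides flanking an enhancer of C2orf43, the gene now named LDAH. Controls and deletions therefore shared Cas9, electroporation and the 2 days of recovery, and no group without electroporation was analysed here. The labels do not say whether the libraries of a group came from separate cultures, and the p-values therefore reflect only how far these libraries spread.

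Cells answer stress in the ER through 3 membrane sensors. PERK (EIF2AK3) phosphorylates the initiation factor eIF2, which lowers general translation and favours translation of ATF4, IRE1 (ERN1) splices the mRNA of XBP1, and ATF6 is cleaved to release a transcription factor. ATF4 is also reached from amino acid shortage and other stresses, through other eIF2 kinases, and turns on amino acid synthesis and transport, whereas XBP1 and ATF6 act mainly on chaperones and on the machinery that returns misfolded proteins to the cytosol. Counts of 3' ends do not report the splicing of XBP1, the translation of ATF4 or the cleavage of ATF6, so that only mRNA levels are described.

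The promoters of both arms are known for short elements that read these factors, and a selection is shown so that the elements can be read beside the values of these genes below, with both arms represented. RefSeq promoters (GRCh38.p14, from 250 bases before to 50 after the annotated start, the first one listed for each gene) were found for 37 of the 40 members, and not for SHMT2, PDIA3 and DERL1. Each line runs 5′ to 3′ on the gene's strand, and capitals mark the match on either strand to the ER stress element (ERSE: CCAAT, 9 unspecified bases, CCACG), to its compact form ERSE-II (ATTGG, 1 unspecified base, CCACG) or to the C/EBP-ATF response element (CARE: TGATG, 1 unspecified base, AA). Where another annotated transcript covers the match, 30 bases around it are given.
HSPA5, chr9:125241344-125241593, minus strand, ERSE: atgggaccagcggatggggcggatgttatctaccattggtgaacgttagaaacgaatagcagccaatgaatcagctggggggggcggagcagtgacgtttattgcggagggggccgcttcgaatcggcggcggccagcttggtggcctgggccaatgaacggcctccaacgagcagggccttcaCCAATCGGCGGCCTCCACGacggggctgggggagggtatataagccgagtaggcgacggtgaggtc
XBP1, chr22:28800598-28800819, minus strand, ERSE: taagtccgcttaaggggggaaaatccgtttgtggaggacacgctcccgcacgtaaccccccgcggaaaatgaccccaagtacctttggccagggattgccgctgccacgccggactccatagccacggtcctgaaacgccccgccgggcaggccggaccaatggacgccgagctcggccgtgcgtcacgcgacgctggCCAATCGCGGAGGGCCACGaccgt
HSP90B1, chr12:103930211-103930240, plus strand, ERSE: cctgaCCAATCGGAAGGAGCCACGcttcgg
HSP90B1, chr12:103930316-103930345, plus strand, ERSE: gggtgCGTGGTGCGGCGCGATTGGtgggtt
HYOU1, chr11:119057206-119057455, minus strand, ERSE-II: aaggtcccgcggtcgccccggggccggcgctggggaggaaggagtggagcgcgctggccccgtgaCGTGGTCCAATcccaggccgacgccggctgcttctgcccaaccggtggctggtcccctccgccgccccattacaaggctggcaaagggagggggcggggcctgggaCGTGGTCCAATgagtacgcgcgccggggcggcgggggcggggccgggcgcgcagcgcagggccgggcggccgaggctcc
ASNS, chr7:97872458-97872487, minus strand, CARE: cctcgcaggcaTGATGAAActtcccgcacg
CHAC1, chr15:40953251-40953280, plus strand, CARE: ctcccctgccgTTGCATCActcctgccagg

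ERSE was found in 6 of the 37 member promoters, those of XBP1, HSPA5, HSP90B1, CALR, CANX and CRELD2, which is 16.2% against 0.132% of the 10621 promoters of counted genes and 0.0769% of the 35116 promoters in the whole table. ERSE-II stood in the promoters of HYOU1, SDF2L1 and HERPUD1, 8.11% of the members against 0.0942% of counted genes and 0.0541% of all promoters. CARE stood in those of ATF3, CHAC1, ASNS, SLC3A2 and HERPUD1, 13.5% of the members against 1.72% of counted genes and 3.62% of all promoters. The core of the XBP1-binding element (UPRE, TGACGTGG) was found only in HYOU1, where it overlaps the upstream ERSE-II match, and in 0.932% of counted genes and 0.729% of all promoters. The members were chosen as known stress genes, so that these shares describe the list. A match is a run of letters and not a site shown to be used, and a promoter without one was not informative on any factor.

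Library totals ran from 4761002 to 7752413 counts in set A and from 3430481 to 6414050 in set B. SMAD3 itself was at 75.0 to 110.1 CPM (counts-per-million) in the SMAD3 enhancer deletion against 121 to 143 in its negative control, and LDAH was at 2.67 to 10.6 CPM in the LDAH enhancer deletion against 7.71 to 18.0. HPRT1 was at 29.3 to 44.2 CPM in the HPRT libraries of set A (control 36.4 to 55.1) and at 24.8 to 54.2 CPM in those of set B (control 35.4 to 91.7), so that its mRNA level did not separate these groups. All 12 endothelial markers were in the table, with a summed level of 1092 to 2211 CPM per library. Of 11 smooth muscle and fibroblast markers 3 were in the table (21.6 to 68.0 CPM summed), of 6 blood markers 2 (2.05 to 17.1 CPM), and of 4 epithelial markers 0. By their correlation with the other libraries of their set, 7 libraries stood apart. The correlation was taken over genes outside the members and the further pathway lists described below. Set A had replicate 3 of HPRT and replicate 4 of the SMAD3 deletion. Set B had replicate 4 of the LDAH deletion, replicates 6 and 7 of the negative control, and replicates 2 and 4 of HPRT. Ribosomal protein genes took 15.3% to 16.4% of counts in these libraries in set A against 11.7% to 14.5% in the rest, and 14.9% to 17.3% against 9.35% to 11.3% in set B. What makes them stand apart was not tested, and the counts of members called are given with and without them in each comparison.

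Mean levels of the members over the 27 libraries ran from 4.40 CPM for DDIT3, the pro-apoptotic factor CHOP, to 1306 CPM for HSPA5, the ER Hsp70 known as BiP. Counts of 3' tags are not scaled by gene length, and levels are therefore compared between libraries for 1 gene at a time. DDIT3, whose induction is a common sign of strong ER stress, stayed between 1.82 and 7.21 CPM in every library. Without a group that was not electroporated, these levels do not show whether DDIT3 was induced. The sensors ERN1 and EIF2AK3 were also low, at a mean of 5.02 and 7.26 CPM, and EIF2AK3 had no count in replicate 4 of HPRT in set B. With 3 counts as the limit that a count of 0 allows, which covers counting error only, a gene could have been at up to 0.387 to 0.875 CPM unseen, depending on the library. The counting is not stated to use strand, so that reads of members overlapping another counted gene on the opposite strand, among them DDIT3, EIF2AK3, HSP90B1, PDIA3, CALR, CRELD2, DNAJB9, DERL1 and WARS1, could include reads of that gene. ASNS, HERPUD1, DNAJC3 and SYVN1 overlap a counted gene on their own strand, where reads could be shared whether or not strand was used.

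**Figure D1:**
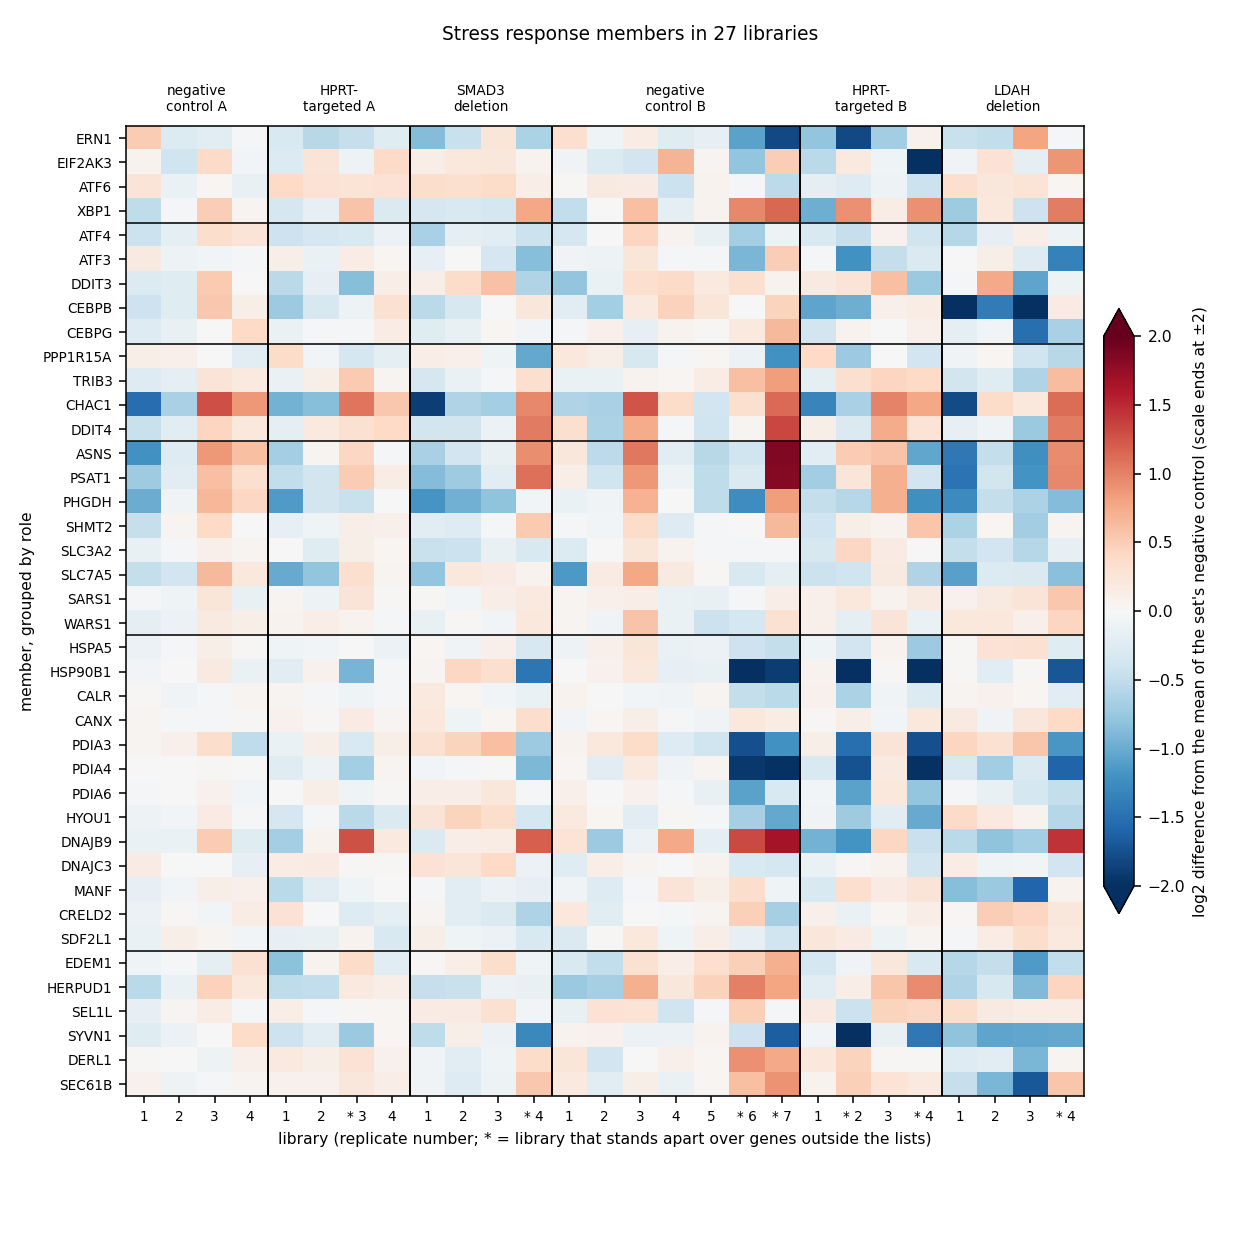
Heat map of the 40 members (rows, ordered by role) in the 27 libraries (columns, ordered by group), coloured by the log2 difference from the mean of the negative control of the same set, with the scale ending at 2 in either direction. Asterisks mark the 7 libraries that stood apart, where HSP90B1, PDIA3 and PDIA4 are below and XBP1 is above the rest of their groups.

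Among the stress sensors and XBP1, the transmembrane factor ATF6 differed most clearly between the sets. ATF6 was at 75.5, 57.2, 64.8 and 56.6 CPM in the negative controls of set A and at 74.7 to 121 CPM, with a median of 109, in the 7 of set B. The groups overlapped through 1 library of each. It rose by 0.70 on the log2 scale from set A to set B (SE 0.13, quasi-likelihood test in edgeR, adjusted p = 0.00119 after Benjamini-Hochberg correction across genes). ATF6 also lay above the negative control in the other groups of set A, at 83.6, 77.1, 76.1 and 76.7 CPM with the HPRT crRNA and at 80.5, 78.6, 81.6 and 69.2 CPM after the SMAD3 enhancer deletion. All 4 HPRT libraries exceeded all 4 controls, which held in either direction for 4.33% of genes, and 1 SMAD3 library fell within the controls' range. The difference was 0.30 with HPRT (SE 0.11, adjusted p = 0.988) and 0.30 with the SMAD3 deletion (SE 0.11, adjusted p = 0.702). In set B, ATF6 was at 136, 126, 129 and 109 CPM after the LDAH enhancer deletion and at 93.8, 89.8, 100.3 and 79.2 CPM with HPRT, 2 groups that did not overlap (difference 0.46, SE 0.18, adjusted p = 0.948).

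The mRNA of XBP1 followed the libraries more than the groups. In the SMAD3 enhancer deletion it was at 51.6, 52.5 and 50.8 CPM in replicates 1 to 3 and at 111 CPM in replicate 4. With HPRT in set A it was at 51.1, 57.6, 96.3 and 52.9 CPM, the highest being replicate 3. In each of the 7 libraries that stood apart XBP1 exceeded the rest of its group, by 0.83 to 1.34 on the log2 scale. The deletions' differences from the negative control were small beside this, at 0.00 for SMAD3 (95% interval -0.62 to 0.62) and -0.24 for LDAH (-1.10 to 0.63). The value for SMAD3 joined libraries on both sides of the control. On the log2 scale replicates 1 to 3 lay at -0.33, -0.30 and -0.35 from the controls' mean and replicate 4, which stood apart, at 0.78.

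ATF4, the main transcription factor of the integrated stress response, was at 284, 336, 490.4 and 459 CPM in the negative controls of set A. It was at 288, 302, 311 and 351 CPM with HPRT and at 243, 338, 327 and 286 CPM after the SMAD3 enhancer deletion. The controls were the most spread of the 3 groups, and their replicates 3 and 4 were the highest libraries of the set. In set B it ran from 189 to 409 CPM in the controls with a median of 281, and the LDAH enhancer deletion, at 204, 270.1, 331 and 282 CPM, lay inside that range. The difference from the control was -0.38 with the SMAD3 deletion (SE 0.17, 95% interval -0.74 to -0.02, adjusted p = 0.73) and -0.33 with HPRT (95% interval -0.69 to 0.03), neither of which passed adjustment.

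CHAC1, a glutathione-degrading target of ATF4, had the widest range of all members within the negative control of set A, at 8.55, 15.8, 62.0 and 46.0 CPM, a log2 range of 2.82 that lay at percentile 99.8 of all genes in that group. It was at 12.9, 13.7, 53 and 36.4 CPM with HPRT and at 6.64, 16.5, 15.5 and 48.9 CPM after the SMAD3 deletion. The 3 groups covered the same range, and the difference between the SMAD3 deletion and its control could lie anywhere from -2.02 to 0.80 on the log2 scale (95% interval, estimate -0.61). TRIB3, a pseudokinase that restrains ATF4 signalling, ran from 38.9 to 106 CPM over the 27 libraries, PPP1R15A, the eIF2 phosphatase subunit GADD34, from 35.6 to 110.0, and DDIT4, an inhibitor of mTORC1 signalling, from 51.6 to 220. None of these 4 genes passed the test against a negative control in either set.

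The genes of serine synthesis and amino acid supply varied together within the groups. Asparagine synthetase (ASNS) was at 20.6, 39.9, 87.9 and 73.3 CPM in the negative controls of set A. PSAT1, an aminotransferase of serine synthesis, was at 110.0, 155, 274 and 225 CPM in the same libraries. PHGDH, the enzyme that opens the serine pathway, was at 16.2, 30.8, 52.0 and 43.4 CPM. Replicate 3 was the highest and replicate 1 the lowest for each of the 3. Over the whole set of 8 amino acid genes, replicate 3 was highest for 8 of 8, where 25.3% of all genes were highest in that library, and replicate 1 was lowest for 7 of 8, where 26.9% of all genes were lowest. The pattern was not confined to them. Replicate 3 was highest for 26 of all 40 members (65%), with 8 of 13 chaperones, and replicate 1 was lowest for 24 of 40 (60%). Among the 6 genes of ER-associated degradation and the translocon, replicate 3 was highest for 2 and lowest for 2. These libraries were singled out after their values were seen, and no test is attached to them. Replicates 1 and 3 had 6940870 and 6521414 counts and 13.3% and 12.8% of counts in ribosomal protein genes.

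A library of the same kind was present in set B, where replicate 3 of the 5 negative controls that did not stand apart was the highest for 8 of 8 amino acid genes (17.4% of all genes were highest there). It was also the highest of these 5 for 20 of all 40 members (50%). ASNS was at 43, 25.6, 76.9, 31.9 and 25.1 CPM in these 5, and at 27.7 and 134 CPM in the 2 that stood apart. The median within-group range of the amino acid genes was 0.99 log2 units in the negative control of set A, against 0.26 for the chaperones and 0.42 for all genes. It was 1.10 against 0.42 and 0.71 in the negative control of set B and 0.77 against 0.29 and 0.57 in the LDAH deletion, the 7 libraries left out. In the SMAD3 deletion the amino acid genes had a median range of 0.34, close to the 0.36 of all genes. The amino acid genes thus had the widest median range of the roles and the chaperones the narrowest in both negative controls. Other roles also exceeded all genes there. The transcription factors were at 0.79 (set A) and 0.77 (set B), the sensors with XBP1 at 0.78 and 0.84, and the effectors at 0.69 and 0.95. The roles were not matched for level, and its part in these ranges was not tested. Mean levels over the 27 libraries ran from 13.3 to 1306 CPM for the chaperones and from 26.0 to 239 CPM for the amino acid genes. PDIA4 was the steadiest chaperone in the controls of set A, at 109.5, 109.7, 113 and 110.1 CPM. Its range was at percentile 0.27 of all genes, against 22.0 in the controls of set B.

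**Figure D2:**
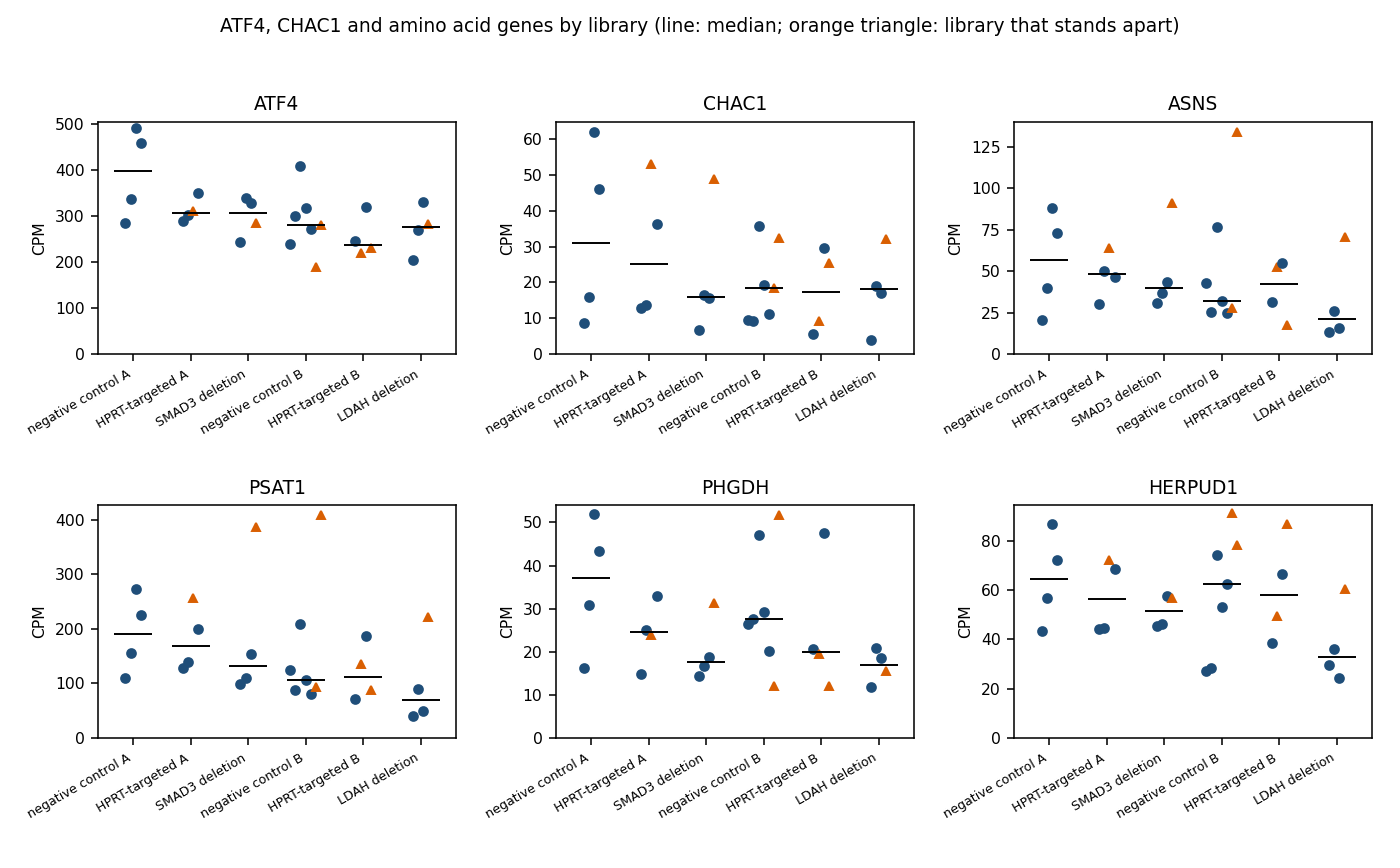
Level in CPM (vertical axis) of ATF4, its targets CHAC1, ASNS, PSAT1 and PHGDH, and the ER-associated degradation gene HERPUD1 in each library by group, with a line at the group median and orange triangles for the 7 libraries that stood apart. CHAC1 spans 8.55 to 62.0 CPM within the negative control of set A alone, and the groups overlap.

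SLC3A2, the heavy chain of the amino acid exchanger that pairs with SLC7A5, was at 179.7, 182, 221 and 197 CPM after the SMAD3 enhancer deletion against 221, 241, 263 and 255 CPM in the negative control. The highest deletion library was just below the lowest control, so that the groups did not overlap. This was the only such member, where 5.44% of all genes did not overlap and 2.85% were lower without overlap. The difference was -0.32 (SE 0.11, 95% interval -0.56 to -0.07, edgeR adjusted p = 0.702). Against HPRT, at 245, 207, 266 and 250.1 CPM, it was lower by a similar amount, -0.30 (SE 0.11, 95% interval -0.54 to -0.05). In set B it was at 128, 137, 121 and 160.1 CPM after the LDAH deletion against 148 to 211 CPM in the controls, with a median of 177, a difference of -0.39 (SE 0.16, 95% interval -0.73 to -0.06) that did not pass adjustment either. PHGDH was lower in both deletions, at 14.2, 16.7, 18.7 and 31.4 CPM with SMAD3 (-0.81, SE 0.34, 95% interval -1.54 to -0.08) and at 11.8, 20.8, 18.5 and 15.4 CPM with LDAH against 12 to 51.8 CPM in its control (-0.88, SE 0.40, 95% interval -1.72 to -0.04). Both deletion groups overlapped their controls, and neither difference in PHGDH passed adjustment (edgeR adjusted p = 0.73 with SMAD3 and 0.9998 with LDAH). PHGDH was also lower with HPRT in set A (-0.57, 95% interval -1.30 to 0.16). Leaving out 1 library moved the SMAD3 estimate between -1.08 and -0.57, the smaller fall being without replicate 3 of the control.

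Among the ER chaperones, HSP90B1 (GRP94) was at 1127, 1452, 1360.0 and 399 CPM after the SMAD3 deletion and at 1260.2, 1055, 1259 and 377 CPM after the LDAH deletion. The 4 HPRT libraries of set B were at 1294, 309, 1254 and 245 CPM. In every case the low libraries were those that stood apart. In all 7 HSP90B1 was below the rest of its group, with log2 differences of -2.55 to -0.88. The oxidoreductases PDIA3 (differences of -1.94 to -0.34), PDIA4 (-1.97 to -0.59) and PDIA6 (-1.15 to -0.14) were lower in all 7 as well, as was the Hsp70-like chaperone HYOU1 (-1.03 to -0.32).

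Over the list, 9 of 40 members (22.5%) were lower in all 7 libraries, against 18.6% of all genes, and 4 (10%) were higher in all 7, against 13.8%. Beside the 5 chaperones the 9 included ATF6, PPP1R15A, CALR, a lectin chaperone, and SYVN1, the ubiquitin ligase HRD1. The 4 higher ones were XBP1, TRIB3, CANX (0.11 to 0.30), the membrane-bound lectin chaperone, and SEC61B (0.03 to 1.58), a subunit of the translocon. Chaperones did not move as a class, since HSPA5 was lower in 6 of the 7 (-0.72 to 0.08 over all 7) and CANX was higher. DNAJB9, an Hsp40 partner of HSPA5, was at 28.5 CPM in replicate 4 of the LDAH deletion against 5.77 to 6.94 CPM in the other 3, and was higher in 5 of the 7 libraries. The share of members that moved in all 7 was near that of all genes, and the libraries' higher share of ribosomal protein counts moved with these differences. Its part in them was not tested.

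**Figure D3:**
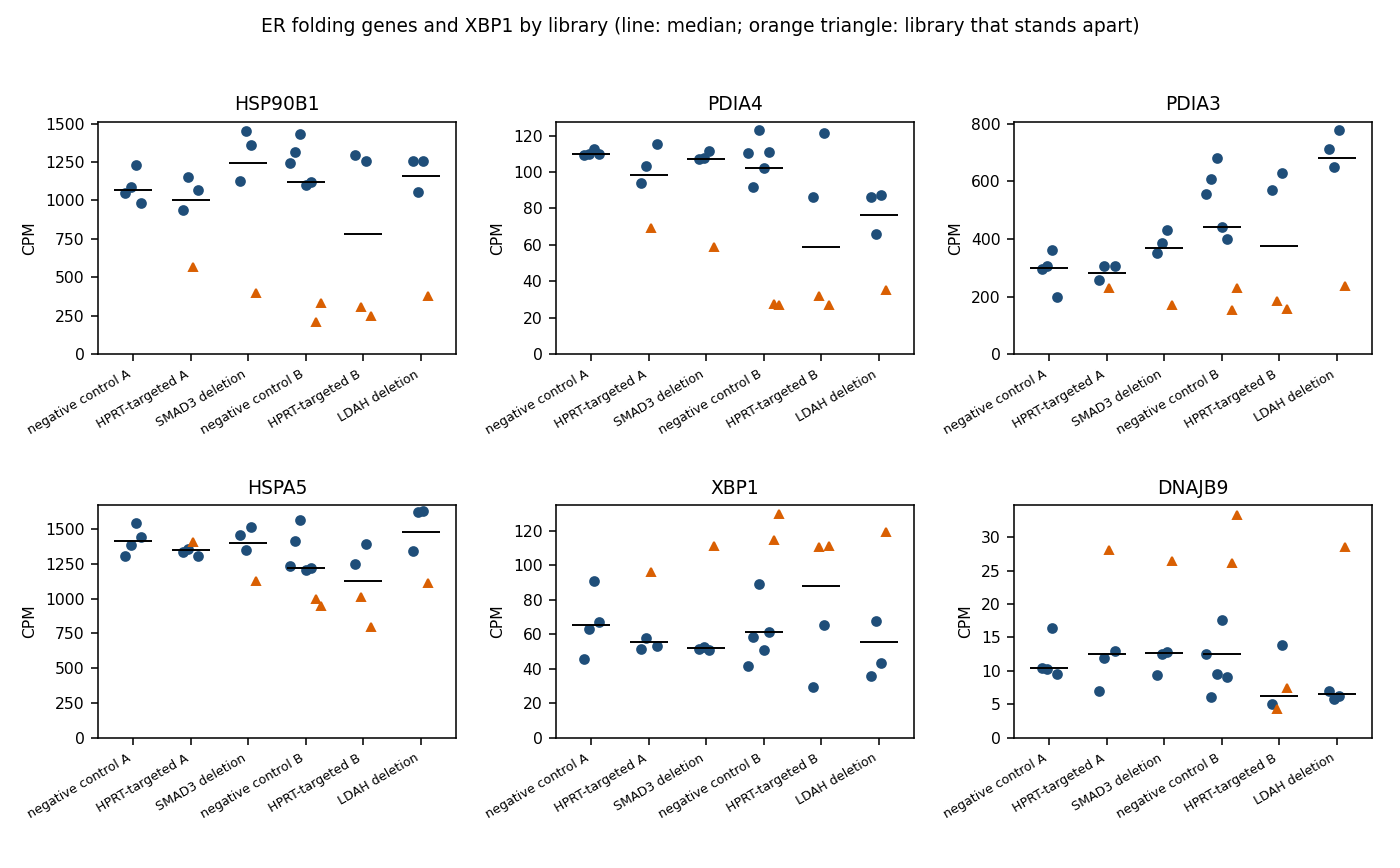
Level in CPM (vertical axis) of HSP90B1, PDIA4, PDIA3, HSPA5, XBP1 and DNAJB9 in each library by group, with a line at the group median and orange triangles for the 7 libraries that stood apart. The triangles are the lowest points of HSP90B1 (211 to 569 CPM) and lie high for XBP1, while HSPA5 stays between 798 and 1629 CPM in all libraries.

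The SMAD3 enhancer deletion was compared with the negative control of set A to ask whether removing the element altered the stress genes. In edgeR's test no member passed an adjusted p of 0.05 (0 of 40, where 0% of all 11467 genes passed), and DESeq2 and limma voom with sample quality weights also called 0 members. At an unadjusted p below 0.05 there were 4 members by edgeR, against 6.78% of all genes, 4 by DESeq2 (6.86% of genes) and 8 by limma (10.8% of genes). The 4 were ATF6 on the higher side and SLC3A2, PHGDH and ATF4 on the lower. Of the members 20 were higher and 20 lower, with a median difference of -0.01 against 0.00 over all genes. By role, the median was 0.03 for the 13 chaperones (8 higher, 5 lower), -0.06 for the 8 amino acid genes (3 and 5) and -0.17 for the 5 transcription factors (1 and 4). In a bulk sample a lower level in every cell and a lower number of cells expressing a gene cannot be told apart.

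HSPA5 is the ER chaperone most used as a readout of ER stress. It was at 1458, 1347, 1515 and 1128 CPM after the SMAD3 deletion against 1304, 1383, 1541 and 1446 CPM in the control. The groups overlapped, and the difference was -0.05 with a 95% interval of -0.27 to 0.17. The interval for CALR, 0.03, ran from -0.18 to 0.23, whereas that for DDIT3, 0.19, ran from -0.49 to 0.86 at its low counts.

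With replicate 4 of the deletion and replicate 3 of HPRT left out, no member was called against the control (0 of 40, where 0.00864% of genes passed), and 13 members had an unadjusted p below 0.05, against 10.6% of all genes. PHGDH came nearest (-1.10, SE 0.29, adjusted p = 0.187). The others included HYOU1 (0.36), the co-chaperone DNAJC3 (0.31), PDIA3 (0.43), HSP90B1 (0.28), PDIA6 (0.17) and SEL1L, a scaffold of ER-associated degradation (0.22), on the higher side, and PSAT1 (-0.65), CHAC1 (-1.36) and XBP1 (-0.36) on the lower. The median moved to -0.12. The deletion's 3 libraries and the 4 controls did not overlap for ATF6, PDIA6, HYOU1, DNAJC3 and SEL1L, all higher, or for SLC3A2, lower, 6 of 40 where 10.5% of genes did not overlap.

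HYOU1 gave the only call among the members in set A, and only without the libraries that stood apart. It was at 122, 139, 131 and 80.4 CPM after the SMAD3 deletion, at 80.7, 101, 70.5 and 83.7 CPM with HPRT and at 95.8, 98.9, 115 and 101 CPM in the negative control. The 3 highest libraries of the set were deletion libraries, and the deletion's 4th was below every control. Against HPRT the difference was 0.51 (SE 0.16, adjusted p = 0.746) with all libraries, where 0 of 40 members and 0% of genes passed (0 members also by DESeq2 and limma). At the unadjusted threshold there were 2 members, HYOU1 and SLC3A2, against 5.83% of genes, 2 by DESeq2 (6.02% of genes) and 8 by limma (12.1% of genes), with DDIT3 (0.59, 95% interval -0.11 to 1.28) and ATF3 (-0.33, 95% interval -0.72 to 0.06) next. Without the 2 libraries it was 0.57 (SE 0.11, 95% interval 0.35 to 0.80, edgeR adjusted p = 0.0293), 1 of 40 members where 0.475% of genes passed. The means were then 131 ± 8.70 CPM (SD, n = 3) for the deletion and 88.5 ± 10.9 (SD, n = 3) for HPRT, with the negative control at 103 ± 8.53 (SD, n = 4) between them.

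**Figure D4:**
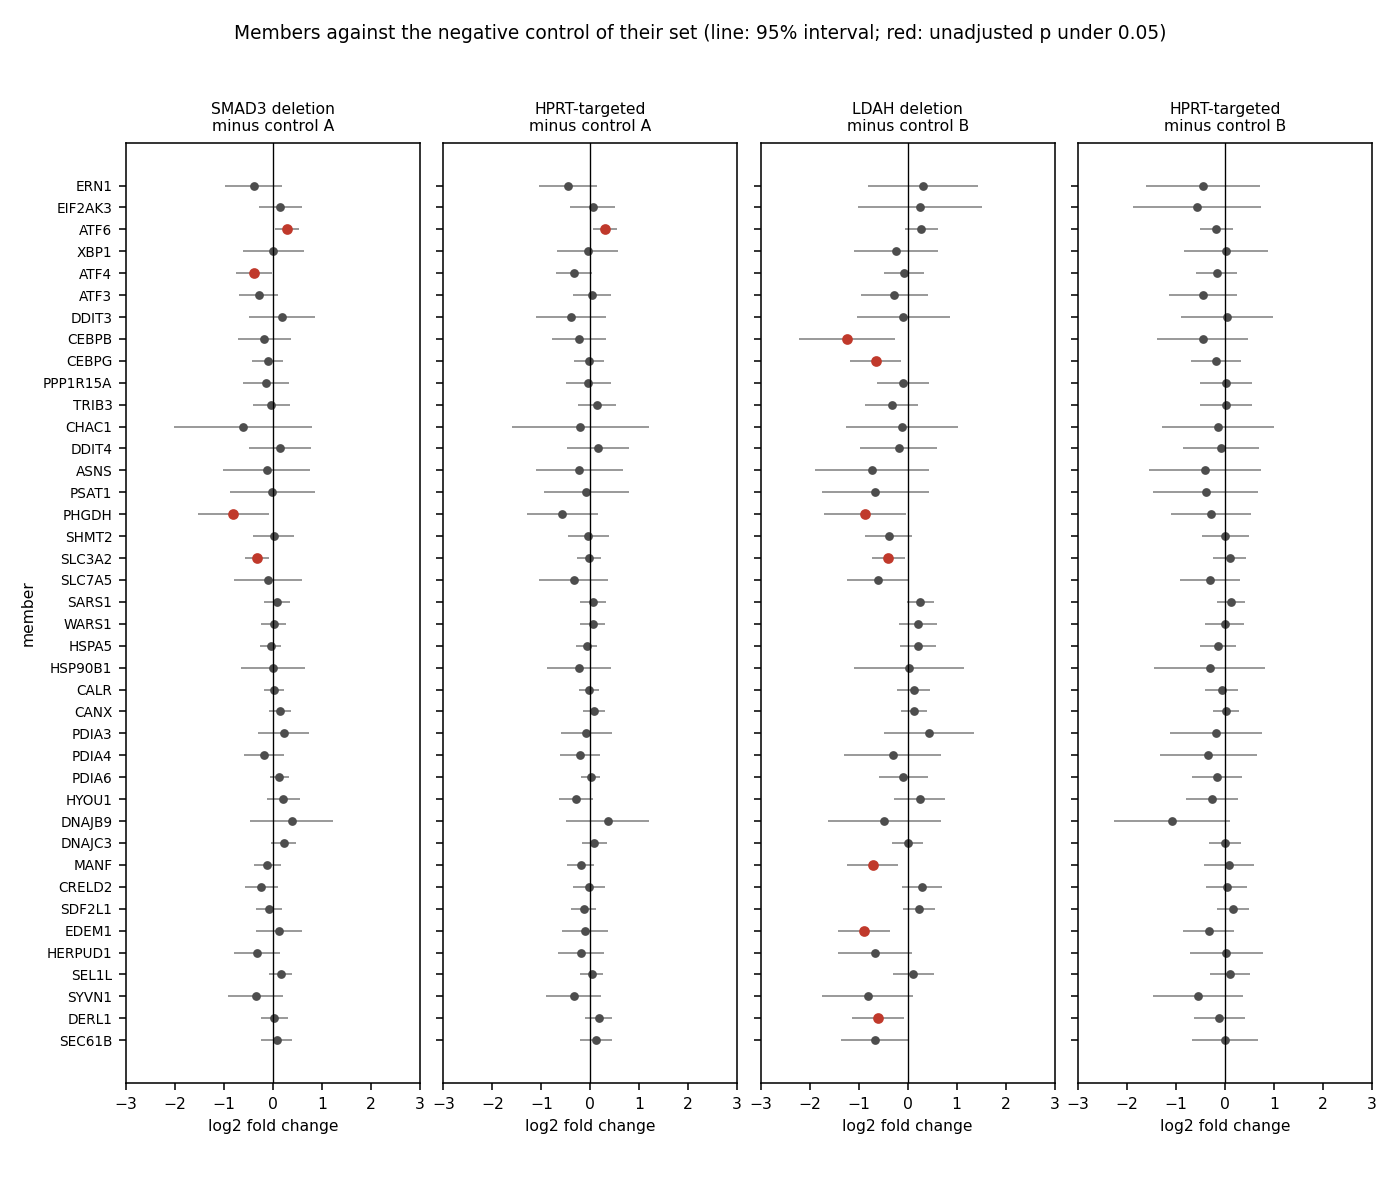
Log2 fold change (horizontal axis, with its 95% interval) of each of the 40 members in the 4 comparisons with a negative control, all libraries included, in which red marks an unadjusted p below 0.05. No member passed an adjusted p of 0.05, and the 7 marked members of the LDAH enhancer deletion all lie below 0.

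The LDAH enhancer deletion was compared with the negative control of set B in the same way. With all libraries no member passed (0 of 40, where 0% of 11769 genes passed, with 0 members called by DESeq2 and by limma). At an unadjusted p below 0.05 there were 7 members, all lower, against 4.61% of all genes in either direction and 3.33% lower. DESeq2 had 9 (5.37% of genes) and limma 14 (10.9% of genes) at that level. Of the members 14 were higher and 26 lower, with a median of -0.15 against 0.01 over all genes. All 5 transcription factors and all 4 effectors had estimates below 0, as had 5 of the 6 genes of ER-associated degradation and the translocon (median -0.66), while 8 of 13 chaperones were above 0 (median 0.12). No member's groups were free of overlap, where 1.08% of all genes had none.

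EDEM1, which delivers misfolded glycoproteins to degradation, had the smallest p of the members. It was at 16.5, 17.6, 11.1 and 17.2 CPM against 17.5 to 40.7 CPM in the 7 controls, with a median of 30.8. The groups met only at their edges, and the difference was -0.90 (SE 0.25, 95% interval -1.43 to -0.36, edgeR adjusted p = 0.702). CEBPG, a partner of ATF4, was at 33.5, 36.7, 13.2 and 24.0 CPM against 34.2 to 59.8 (-0.65, SE 0.25, 95% interval -1.18 to -0.13). DERL1, a channel component of ER-associated degradation, was at 56.7, 58.9, 35.9 and 70.3 CPM against 51.9 to 129 (-0.60, SE 0.25, 95% interval -1.13 to -0.08). Both rested in part on replicate 3 of the deletion, without which the differences were -0.43 and -0.44.

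MANF, a secreted ER-resident survival factor, was at 81.5, 87.6, 49.0 and 154 CPM after the LDAH deletion. In the negative controls it was at 139.8, 123, 143, 175, 159, 187 and 139 CPM. Replicates 1 to 3 of the deletion lay below every control, and the one inside their range was replicate 4, which stood apart. With all libraries the difference was -0.71 (SE 0.25, 95% interval -1.24 to -0.19, edgeR adjusted p = 0.919), and without replicate 3 of the deletion it was -0.50. CEBPB, a bZIP factor that joins the stress response, was at 2.95, 5.61, 3.31 and 16.9 CPM against 9.44 to 21.4 CPM in the controls (-1.24, SE 0.46, adjusted p = 0.971). SEC61B was at 129.6, 94.7, 54.4 and 261 CPM against 154 to 331 CPM (-0.67, SE 0.33, 95% interval -1.36 to 0.03). The same 3 libraries were low for all 3 genes, which lie on 3 chromosomes (MANF at chr3:51385047-51389397, CEBPB at chr20:50190734-50192689 and SEC61B at chr9:99222064-99230615, GRCh38, GENCODE 29).

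Without the 5 libraries of set B that stood apart, these 3 members fell in edgeR's test: MANF (-1.04, SE 0.18, adjusted p = 0.00318), CEBPB (-2.02, SE 0.38, adjusted p = 0.00514) and SEC61B (-0.96, SE 0.19, adjusted p = 0.00644). They were 3 of 40 members, where 212 of 12153 genes (1.74%) passed. The means were 72.7 ± 20.8 CPM (SD, n = 3) against 148 ± 19.9 (SD, n = 5) for MANF, 3.95 ± 1.44 against 16.0 ± 4.68 for CEBPB, and 92.9 ± 37.6 against 179 ± 20.7 for SEC61B. Leaving out replicate 4 of the deletion alone gave 0 members called, although the estimates were as large, at -1.07 for MANF and -2.07 for CEBPB. The calls thus rested on the removal of several libraries, a choice made after the data were seen.

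A further 14 members had an unadjusted p below 0.05 without these libraries, which made 17 of 40 against 12.8% of all genes. Of the 17, 16 were lower and 1 was higher, against 8.54% of genes lower and 4.25% higher. SLC3A2 (-0.50, adjusted p = 0.0631), ASNS (-1.14, adjusted p = 0.0674), SYVN1 and PSAT1 (-1.01 and -1.03, each with an adjusted p of 0.0758) came next. EDEM1 (-0.77), HERPUD1, a membrane organiser of the degradation complex (-0.72), PHGDH (-0.83) and DNAJB9 (-0.80) were below 0 at larger p, and PDIA3 (0.40) was the higher one. The member median was -0.26. The groups did not overlap for CEBPB, TRIB3, SLC3A2, PDIA4, MANF, SYVN1 and SEC61B, lower, and for ATF6, higher, 8 of 40 where 8.93% of all genes did not overlap. SYVN1 overlaps FAU, a counted gene on its strand, and MRPL49 on the other, so that reads could be shared between them.

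**Figure D5:**
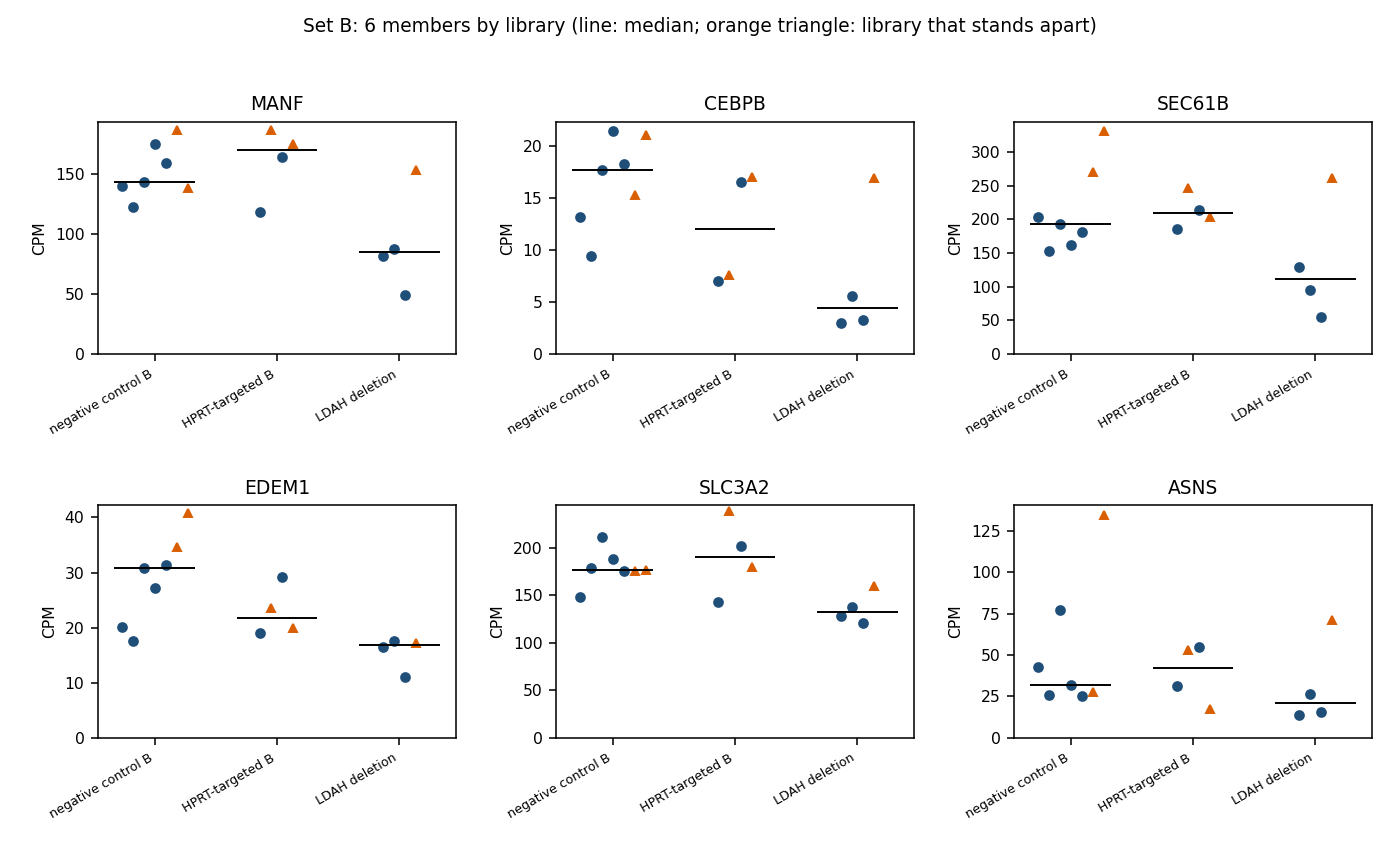
Level in CPM (vertical axis) of MANF, CEBPB, SEC61B, EDEM1, SLC3A2 and ASNS in the libraries of set B by group (negative control, HPRT, LDAH enhancer deletion), with a line at the group median and orange triangles for the libraries that stood apart. For MANF, CEBPB and SEC61B 3 deletion libraries lie below the controls and the triangle, at 154, 16.9 and 261 CPM, lies among them.

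Against HPRT of set B, which had the same cutting nuclease but another locus, no member passed with all libraries (0 of 40, 0% of genes), and 3 had an unadjusted p below 0.05 against 4.22% of genes: MANF, ATF6 and SLC3A2 (-0.49, SE 0.18, 95% interval -0.86 to -0.11). DESeq2 and limma called 0 members too, with 3 (5.03% of genes) and 12 (8.19% of genes) at the unadjusted threshold. EDEM1 (-0.56, 95% interval -1.15 to 0.03) came next and, like ATF6, did not overlap between the groups, as for 2.28% of genes. MANF, at 118, 186, 164 and 175 CPM with HPRT, was lower in the LDAH deletion by a similar amount as against the negative control (-0.80, SE 0.27, edgeR adjusted p = 0.948). Without the libraries that stood apart SEC61B (-1.12, SE 0.22, adjusted p = 0.0132) and MANF (-0.97, SE 0.21, adjusted p = 0.0276) fell, 2 of 40 where 0.634% of genes passed. HPRT then had only 2 libraries. The comparisons with HPRT and with the negative control share the deletion's libraries and are not independent of each other.

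The effects of the enhancer deletions, each against its own negative control, were compared in a fit of all 27 libraries. No member differed with all libraries (0 of 40, 0% of genes), and 3 had an unadjusted p below 0.05 against 3.64% of genes: EDEM1 (1.00 higher with SMAD3, SE 0.34, 95% interval 0.31 to 1.70), DERL1 (0.61) and CRELD2, a secreted ER stress protein (-0.54). DESeq2 and limma called 0 members, with 3 (4.13% of genes) and 5 (8.89% of genes) at the unadjusted threshold, and MANF (0.59, 95% interval -0.02 to 1.19) came next by edgeR. Without the 7 libraries the effect on MANF differed by 0.94 (SE 0.22, edgeR adjusted p = 0.0448), 1 of 40 where 0.550% of genes passed. CEBPB (1.72, adjusted p = 0.0745) and SEC61B (0.84, adjusted p = 0.0825) did not pass. The deletions were made in different sets, so that a difference between the loci and one between the sets cannot be told apart beyond what the controls remove.

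The HPRT crRNA, a cut outside the enhancers studied, left the stress genes without a call in either set. In set A 0 of 40 members passed, where 0% of genes passed, with 0 by DESeq2 and by limma. ATF6 was the single member with an unadjusted p below 0.05, against 2.24% of all genes. At that level there was 1 member by DESeq2 (2.22% of genes) and 3 by limma (6.49% of genes). After ATF6 and ATF4, HYOU1 (-0.29, 95% interval -0.64 to 0.05) and PHGDH, at 14.8, 25.1, 23.9 and 32.8 CPM (-0.57, 95% interval -1.30 to 0.16), came nearest. Without replicate 3 of HPRT again 0 of 40 passed (0.00864% of genes), and 4 had an unadjusted p below 0.05 against 5.94% of genes: ATF6 (0.31), SLC7A5, the light chain of the exchanger (-0.62), ATF4 (-0.33) and HYOU1 (-0.22). In set B it was 0 of 40 at either threshold, where 0% of genes passed adjustment and 1.75% the unadjusted one. DESeq2 and limma also called 0 there, with 1 (2.34% of genes) and 0 members (2.81% of genes) at the unadjusted threshold. DNAJB9 came nearest, at 5.02, 4.26, 13.9 and 7.39 CPM against 6.07 to 33.3 CPM in the controls (-1.08, SE 0.56, 95% interval -2.27 to 0.11), and ATF3, a stress-induced repressor, was at 15, 6.48, 11 and 12.5 CPM against 8.02 to 21.9 (-0.45, 95% interval -1.14 to 0.24). EDEM1, at 19.1, 23.5, 29.1 and 19.9 CPM, differed by -0.33 (95% interval -0.85 to 0.19) and SYVN1, at 12.3, 2.04, 11.7 and 4.51 CPM against 3.82 to 13.8 in the controls, by -0.56 (95% interval -1.47 to 0.36). The low values of SYVN1 were those of the 2 HPRT libraries that stood apart. Without the 5 such libraries of set B again 0 of 40 passed and 0 had an unadjusted p below 0.05 (0% and 2.88% of genes), and the median moved from -0.14 to -0.00. With both sets fitted together 0 of 40 members passed and 0 had an unadjusted p below 0.05 (0% and 3.19% of all genes), with a median of -0.11, while DESeq2 and limma called 0 and had 0 (3.91% of genes) and 3 (8.47% of genes) at the unadjusted threshold. The estimates nearest the threshold were all below 0: ATF4 (-0.25, 95% interval -0.53 to 0.03), HYOU1 (-0.28, 95% interval -0.60 to 0.04), SYVN1 (-0.46, 95% interval -1.03 to 0.11) and CEBPB (-0.35, 95% interval -0.81 to 0.10). Without the libraries that stood apart again 0 of 40 passed (0.00825% of genes), and 2 had an unadjusted p below 0.05 against 6.59% of genes, ERN1 (-0.60) and HYOU1 (-0.19). The difference of HSPA5 was -0.07 in set A (95% interval -0.29 to 0.15) and -0.14 in set B (-0.51 to 0.23). The difference between the HPRT effects of the sets had 0 members past adjustment (0% of genes) and 1 at an unadjusted p below 0.05, ATF6 (-0.48, SE 0.20, 95% interval -0.89 to -0.08), against 1.32% of genes. DESeq2 and limma called 0 members in it, with 2 (1.70% of genes) and 1 (2.79% of genes) at the unadjusted threshold, and the next estimates by edgeR were those of DNAJB9 (-1.43, 95% interval -2.96 to 0.09), SDF2L1, a stabiliser of folding complexes (0.29, 95% interval -0.11 to 0.69), and ATF3 (-0.50, 95% interval -1.32 to 0.32). Without the 7 libraries 0 of 40 passed (0.00809% of genes), 1 member, again ATF6 (-0.48), had an unadjusted p below 0.05 against 2.61% of genes, and the median was 0.08.

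The negative controls themselves differed between the sets in 9.60% of 12055 genes, and in 2 of the 40 members, ATF6 (above) and SLC3A2. SLC3A2 fell from 221 to 263 CPM in set A to 148 to 211 CPM in set B, without overlap, as for 11.9% of genes (-0.45, SE 0.13, edgeR adjusted p = 0.0205). Its call was lost without replicate 2, 3 or 4 of the control of set A or replicate 1 of set B (adjusted p from 0.0503 to 0.0755). EDEM1 was 0.62 higher in set B (adjusted p = 0.0857). DESeq2 called 2 members and limma with quality weights 12, where limma called 3639 of the 12055 genes. At an unadjusted p below 0.05 DESeq2 had 8 members (22.7% of genes) and limma 14 (40.1% of genes). With replicates 6 and 7 of set B left out 9 members passed, where 28.2% of all genes passed: ATF6, PDIA3 (0.89), HYOU1 (0.52) and CALR (0.34) rose, and SLC3A2, DERL1 (-0.50), SEC61B (-0.47), CRELD2 (-0.38) and SYVN1 (-0.51) fell. The share of members called by edgeR was below that of all genes in both fits. The labels give the sets no description beyond their letter, so that the set and any difference in handling cannot be told apart.

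Of the remaining members none passed the test against a negative control. The tRNA synthetases SARS1 and WARS1, which charge serine and tryptophan, ran from 194 to 338 and from 103 to 214 CPM over the 27 libraries, and with all libraries their differences from a negative control lay between -0.00 and 0.26. SHMT2, the mitochondrial serine hydroxymethyltransferase, ran from 80.6 to 204 CPM, with differences of -0.39 (LDAH, 95% interval -0.87 to 0.09) to 0.02. SLC7A5 was lower in all 4 comparisons with a negative control, from -0.10 (SMAD3) to -0.61 (LDAH, 95% interval -1.24 to 0.01), and did not pass in any. DNAJC3 (101 to 149 CPM), CANX (672 to 967), SDF2L1 (47.5 to 80.4) and SEL1L (51.5 to 96.6) had differences from a negative control between -0.14 and 0.23 with all libraries, and DNAJC3 was the one at 0.31 for SMAD3 without the libraries that stood apart.

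Genes of the same pathways outside the 40 were counted from 6 further lists: 27 of 30 other ATF4 targets, 15 aminoacyl-tRNA synthetases, 14 genes of the eIF2 machinery, other ER folding genes, 16 of 17 other genes of ER-associated degradation, and 24 genes of the translocon and early secretory traffic. In edgeR's test against a negative control with all libraries 0 of them passed in either set. At an unadjusted p below 0.05 the lists together had 9 of 123 genes after the SMAD3 deletion (4 higher, 5 lower), which is 7.32% against 6.78% of all genes, and 5 of 124 after the LDAH deletion (all lower), 4.03% against 4.61%. HPRT gave 0 genes against the control of set A, where 2.24% of all genes had such a p. Against that of set B it gave 1, which is 0.806% against 1.75% of all genes. Without the libraries that stood apart the counts were 16 after the SMAD3 deletion (6 higher, 10 lower), 13% against 10.6% of all genes, and 24 after the LDAH deletion (7 higher, 17 lower), 19.4% against 12.8%. The other ATF4 targets among them were 8 with SMAD3 (1 higher, 7 lower), where 5.29% of all genes were higher and 5.35% lower. With LDAH they were 5, all lower, where 8.54% of all genes were lower. The lists had 5 genes with HPRT against the control of set A, 4.07% against 5.94% of all genes. Against the control of set B HPRT had 0, where 2.88% of all genes passed that threshold. Of the 5 found after the LDAH deletion with all libraries, 3 were ATF4 targets: SHMT1 of folate metabolism (-1.27, adjusted p = 0.919), PCK2, a mitochondrial carboxykinase (-1.27, adjusted p = 0.971), and the cystine transporter SLC7A11 (-0.30, adjusted p = 1). SEC61G, another subunit of the translocon, was also lower (-1.07, adjusted p = 0.971), and without the libraries that stood apart it fell by 1.70 (SE 0.31, adjusted p = 0.0043), the 1 of 24 in its list to pass. After the SMAD3 deletion SEC31A, a coat protein of vesicles that leave the ER, was 0.44 higher (adjusted p = 0.702) and SLC7A11 was lower (-0.31, adjusted p = 0.709), without passing adjustment.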

How the data were processed

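The authors deposited a table of whole-number read counts per Ensembl gene for 27 libraries. Per the labels, libraries were made with a 3' mRNA kit and read for 86 cycles. Version 3.24.3 of edgeR and build hg38 are listed, with no stated role, per the submitters' processing notes. Neither aligner nor counting program is named in those sources, and so both are not given here. A count of 3' ends depends on the annotated end of a gene and carries no length term, and no removal of duplicates by molecular identifiers is stated, so that the limit behind a count of 0 covers counting error only. The 95% intervals of fold changes are from the fit and rest on the spread between libraries.

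Counts were tested as deposited with edgeR 4.0.16 in R 4.3.3 (TMM scaling, filterByExpr, two-sided quasi-likelihood test, Benjamini-Hochberg adjustment over all genes tested, threshold 0.05). Each set was fitted whole (A: 12 libraries, 11467 genes. B: 15 libraries, 11769 genes), HPRT over both sets on 19 libraries and 11836 genes, and comparisons across sets on all 27 libraries and 12055 genes. Levels are TMM-scaled counts-per-million values, and fold changes are on the log2 scale with a standard error derived from the F statistic. The script was tested on simulated data with known fold changes. The simulated spread was below that of set B and no library stood apart, so that the simulation does not show what set B could detect. Alternatives were DESeq2 1.42.0, limma 3.58.1 (voom with sample quality weights), DESeq2 size factors, no filter, a mean of at least 10 CPM, only the groups compared, and each library left out in turn. Leaving out the libraries that stand apart (median correlation with their set more than 3 scaled median absolute deviations below the set's median) was chosen after seeing the data. Within the groups, 51 pairs of libraries differed by more than sampling noise (from 3.03 to 78.9 in chi-square divided by its degrees of freedom), and each counts as 1 sample.

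The members and gene lists were chosen with earlier results of these data known. In each comparison the members past the adjusted threshold, or otherwise those with an unadjusted p below 0.05 (at least the 4 smallest), are named. Positions are from GENCODE 29 and promoters from RefSeq.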

Additional observations from a re-analysis of the deposited data

Results flagged for a closer look

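Each member was checked in each of the 6 groups for 1 library far from the others of its group (Dixon's test at the 95% level). Of 240 such checks 11 were positive, which is 4.58%, and chance gives about 1 in 20. Of these 11, 8 were in libraries that stood apart from their set over other genes.

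In the SMAD3 enhancer deletion, replicate 4 was far from the rest for XBP1 (111 CPM, the nearest at 52.5), for the mTORC1 inhibitor DDIT4 (167 CPM against 74.2) and, on the low side, for PDIA4 (58.8 CPM against 107). XBP1 was also far above the rest in replicate 3 of HPRT in set A, at 96.3 CPM against 57.6. In replicate 7 of the negative control of set B, PSAT1 (409 CPM against 210) and CEBPG (59.8 CPM against 43.7) were high and SYVN1 was low (3.82 CPM against 9.54). DNAJB9 was at 28.5 CPM against 6.94 in replicate 4 of the LDAH enhancer deletion.

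The other 3 were in libraries that did not stand apart. DNAJB9 was at 16.4 CPM in replicate 3 of the negative control of set A, where the nearest was at 10.4. ATF6 was at 83.6 CPM in replicate 1 of HPRT in set A against 77.1, and SYVN1 was at 7.29 CPM in replicate 1 of the LDAH enhancer deletion against 6.12, both within narrow groups.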

How the results depend on the processing

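Over all alternatives no result changed direction past a threshold, and named members' fold changes kept their side of the threshold in 882 of 899 checks. With DESeq2 the number of genes called was 14 for the SMAD3 deletion and 1 for HPRT against the control of set A, 17 for SMAD3 against HPRT, 14 for the LDAH deletion against its control, 1 for HPRT over both sets, 2 for the difference between the HPRT effects and 4 for that between the deletions, where edgeR called 0. With limma and quality weights it was 2, for SMAD3 against its control, 5 for SMAD3 against HPRT, 6 for HPRT over both sets, 1 for the difference between the deletions and 3639 between the negative controls, where 12 members were called, and the members' median for LDAH against HPRT was -0.22. With the libraries that stand apart left out, a choice made after seeing the data, the genes called were 1 for SMAD3 (members' median -0.12) and 1 for HPRT against the control of set A, 55 for SMAD3 against HPRT (1 member), 212 for LDAH against its control (3 members), 77 for LDAH against HPRT (2 members, median -0.28), 1 for HPRT over both sets, 1 for the difference between the HPRT effects (median 0.078), 68 for that between the deletions (1 member, median 0.23) and 3482 between the negative controls (9 members), and the median for HPRT in set B was -0.0032. Leaving out 1 library at a time, in 73 fits, gave 0 to 3 genes for LDAH against its control, 0 to 2 for SMAD3 against HPRT, 0 to 1 for the difference between the HPRT effects and 0 to 4 for that between the deletions, each highest without replicate 4 of the LDAH deletion or replicate 3 of HPRT in set A. Between the negative controls it gave 693 to 1218 genes, lowest without replicates 1, 2 or 4 of set A, and 1 to 3 members, and the median for SMAD3 against its control was -0.11 to 0.061. The other scaling moved the median of all genes by at most 0.0164. No paired analysis by replicate number was possible because the labels give no such numbers shared between groups. The titles carry S numbers whose meaning is not stated. For HPRT and control libraries with neighbouring S numbers (4 pairs in each set), the deviations from the group means were correlated. The correlations were 0.165, 0.0607, -0.0936 and -0.0118 in set A and 0.357, -0.198, 0.443 and 0.420 in set B. The lowest value of each set came from a pair in which only the HPRT library stood apart. The pairs thus did not all vary together. With these pairs as a replicate block, added after seeing the data, 0 members and 0 genes were called for HPRT in set A, in set B or over both sets, and 5, 0 and 5 members had an unadjusted p below 0.05 (5.4%, 1.96% and 6.78% of genes). For HPRT over both sets a fit of only the groups compared is the one reported. With all libraries included, set B varied more (common dispersion 0.195) than set A (0.0434), which limits what set B can show for genes at any level. Counting error adds to this for low genes such as DDIT3 and ERN1.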
